A study of Homo sapiens with 6 samples.

Results

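Antisense genes that were expressed in AZ-521 cells, and the protein-coding genes that they overlap on the opposite strand, were compared between cells given platycodon D (PD) and cells given its solvent. The members were selected on their levels: genes of biotype antisense with at least 1 FPKM (fragments normalised to exon length and to a divisor per sample) in at least 3 of the 6 samples. That biotype was given to 5583 of the 58735 genes, and 638 of these reached the level. Host genes of small nucleolar RNAs (ZFAS1, AC016876.1, SNHG7, SNHG12 and SNHG10) were left out by name, which left 633 members. A partner was any protein-coding gene on the opposite strand whose span shared at least 1 base with the member: 549 members had one or more, 83 had 2 or more, and 84 had none. Those 549 members formed 654 pairs with 610 partners, and 525 pairs had a partner that reached the same level.

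Polyadenylated RNA was sequenced from 3 samples of AZ-521 cells kept in 10 µM PD, a saponin from the root of Platycodon, for 48 h, and from 3 samples kept in DMSO for 48 h. The labels give the genotype of both groups as wild type and call the line a gastric cancer line, while cell banks list it as duodenal. Whether replicates came from separate cultures is not in the labels, so the spread behind each p-value may be technical.

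Antisense genes are transcribed from the strand opposite to another gene, often as unspliced or lightly spliced RNA without a long reading frame. Some begin beside the start of a coding gene and run away from it, since many promoters fire in both directions, while others begin inside a coding gene or run into its end. Certain of them silence or support the gene they overlap, and many are taken apart in the nucleus by the RNA exosome soon after they are made.

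The stretches around the starts of 5 members and 1 partner are shown because their members changed most or lie at partners described below, and because they range from poor to rich in CG pairs, the mark of CpG island promoters. They are RefSeq sequences on GRCh38.p14, 5′ to 3′ on the gene's own strand, with CG pairs in capitals. Each comes from a window of 250 bases before to 50 after the RefSeq start, and stretches in annotated untranslated regions are left out. CADM2-AS2 is at chr3:85828001-85828300 (minus strand), SEMA3B-AS1 at chr3:50267322-50267557 (minus strand), PSMD6-AS2 at chr3:64003772-64004071 (plus strand), IDI2-AS1 at chr10:1022387-1022686 (plus strand), NR2F1-AS1 at chr5:93585540-93585839 (minus strand) and MAP3K4, the partner of AL139393.2, at chr6:160991519-160991726 (plus strand).
CADM2-AS2: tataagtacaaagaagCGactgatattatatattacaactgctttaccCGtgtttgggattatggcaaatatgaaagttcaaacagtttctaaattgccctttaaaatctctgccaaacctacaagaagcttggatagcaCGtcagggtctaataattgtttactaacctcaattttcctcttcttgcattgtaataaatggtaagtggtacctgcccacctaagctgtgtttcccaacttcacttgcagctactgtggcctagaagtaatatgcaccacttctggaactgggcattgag
SEMA3B-AS1: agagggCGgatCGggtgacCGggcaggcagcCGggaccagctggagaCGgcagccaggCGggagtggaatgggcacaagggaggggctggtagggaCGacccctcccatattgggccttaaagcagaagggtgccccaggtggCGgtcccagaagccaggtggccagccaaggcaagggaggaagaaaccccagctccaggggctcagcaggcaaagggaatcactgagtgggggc
PSMD6-AS2: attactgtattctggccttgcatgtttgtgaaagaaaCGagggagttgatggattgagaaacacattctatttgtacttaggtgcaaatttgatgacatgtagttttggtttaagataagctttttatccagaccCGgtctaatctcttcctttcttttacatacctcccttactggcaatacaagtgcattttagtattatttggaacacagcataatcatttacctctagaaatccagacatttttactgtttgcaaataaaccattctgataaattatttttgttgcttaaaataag
IDI2-AS1: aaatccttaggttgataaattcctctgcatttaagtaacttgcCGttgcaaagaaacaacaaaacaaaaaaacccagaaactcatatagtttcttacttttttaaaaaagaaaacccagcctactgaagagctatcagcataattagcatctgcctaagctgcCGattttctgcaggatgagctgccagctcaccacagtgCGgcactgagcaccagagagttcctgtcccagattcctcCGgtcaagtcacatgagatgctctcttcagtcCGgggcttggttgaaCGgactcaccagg
NR2F1-AS1: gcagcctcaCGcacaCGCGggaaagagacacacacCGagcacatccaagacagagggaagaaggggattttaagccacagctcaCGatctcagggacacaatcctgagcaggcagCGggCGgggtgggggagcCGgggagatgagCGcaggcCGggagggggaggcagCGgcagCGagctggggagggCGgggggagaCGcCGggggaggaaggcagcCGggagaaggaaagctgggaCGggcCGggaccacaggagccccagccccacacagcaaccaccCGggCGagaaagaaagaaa
MAP3K4: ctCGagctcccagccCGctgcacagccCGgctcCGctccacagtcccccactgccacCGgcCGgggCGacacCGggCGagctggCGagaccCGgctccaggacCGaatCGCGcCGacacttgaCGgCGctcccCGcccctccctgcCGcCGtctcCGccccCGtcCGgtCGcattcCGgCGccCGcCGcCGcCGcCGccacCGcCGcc

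These stretches hold 3 CG pairs for CADM2-AS2, 8 for SEMA3B-AS1, 2 for PSMD6-AS2, 6 for IDI2-AS1, 20 for NR2F1-AS1 and 33 for MAP3K4. RefSeq windows were matched for 135 of the 633 members and 470 of the 610 partners. Whole windows of 300 bases held a median of 22 CG pairs in those members and 27 in the partners, against 14 over all 34943 windows. The 26 matched members that fell in PD had a median of 28, and the 17 that rose had 20.

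A pair of partners is shown for a motif. DKK1 (chr10:52314031-52314295, plus strand) lies head to head with PRKG1-AS1, and SREBF2 (chr22:41832855-41833078, plus strand) with SREBF2-AS1. Capitals mark TATAAA, the TATA box, in DKK1 and, in SREBF2, the CACCCC within a match to SRE-1, the element bound by sterol regulatory proteins.
DKK1: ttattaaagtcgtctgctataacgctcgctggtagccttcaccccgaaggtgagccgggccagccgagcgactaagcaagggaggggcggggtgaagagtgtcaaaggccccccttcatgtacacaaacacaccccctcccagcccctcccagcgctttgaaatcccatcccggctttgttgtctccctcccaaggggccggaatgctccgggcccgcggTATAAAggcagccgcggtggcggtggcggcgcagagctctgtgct
SREBF2: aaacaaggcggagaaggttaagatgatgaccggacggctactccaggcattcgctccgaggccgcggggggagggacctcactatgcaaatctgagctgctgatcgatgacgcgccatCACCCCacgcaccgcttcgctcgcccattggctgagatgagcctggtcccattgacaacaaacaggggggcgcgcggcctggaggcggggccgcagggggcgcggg

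The TATA box in the DKK1 stretch begins 30 bases before the RefSeq start, and 252 bases of the DKK1 window are also in that of PRKG1-AS1. On either strand, TATAAA was in 11.6% of all windows, 7.45% of those of partners and 5.93% of those of members. SRE-1 was in 0.0458% of all windows and in 0.213% of those of partners, which is the SREBF2 window alone, where its first base lies 134 bases before the start. No window of a member held it. E-boxes (CACGTG) were in 12.6% of the windows of members, 9.79% of those of partners and 7.23% of all, and CCAAT boxes in 34.1%, 37.9% and 34.6%. A match is a run of letters and not a measured binding site.

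Reads over genes numbered 14915538 to 16341687 per sample. On log2(FPKM + 1) values the groups were apart along the first principal component (59.5% of the variance). Along the second component (18.9%) DMSO replicate 1 and PD replicate 3 stood at 0.571 and 0.543, and the remaining samples between -0.391 and -0.056. Epithelial and gastric markers were low or at 0 in all 6 samples, and KRT18, KRT19, TFF1, TFF2 and GKN1 were listed at 0. The highest values were 0.258 FPKM for EPCAM, 0.428 for KRT8, 0.0216 for CDH1, 0.484 for CLDN18, 0.132 for GATA4 and 0.0858 for MUC5AC. Of the duodenal or intestinal markers, CDX2 lay between 0.979 and 1.59 FPKM and PDX1 between 0.187 and 0.770. CDX1 was listed at 0, and VIL1 and CDH17 reached at most 0.0470 and 0.0167 FPKM. The mesenchymal marker VIM lay between 72.4 and 107 FPKM, and CDH2 between 4.89 and 13.9.

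Members were mostly low. The median of their mean levels was 1.97 FPKM, with quartiles at 1.32 and 3.59, and 34 of 633 reached a mean of 10 FPKM. The median member had 33 reads per sample over exons of 865 bases, so counting error alone is large for much of the group. All 6 samples held at least 1 FPKM for 353 members, 21 reached it in the 3 PD samples only and 24 in the 3 DMSO samples only. For the members of both these sets the direction was fixed by the selection, and they are part of the counts over all members below. Third-highest values just inside the threshold were 1.00 FPKM for AL122035.2, 1.00 for AC067750.1 and 1.01 for AC006213.3, and just outside 0.999 for AC097376.2, 0.998 for AL049869.3 and 0.998 for AL353593.3.

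Reads over bases shared by exons of both strands had been given to neither gene. Among genes of at least 300 bases, all 431 whose every exon base is shared with an exon on the other strand had 0 reads, 275 of them antisense. Of the antisense genes without a shared base 40.7% had none. A median of 93.3% of a member's exon bases were unshared, 250 members shared no base, and the lowest share was 8.22%. The libraries came from a stranded kit, and the sources used here do not give the strand setting of the counting. Counting by strand would have given reads over bases shared by both strands to a gene. The 0 reads of all 431 genes therefore show that strand was not used. RNA of a member and unspliced RNA of its partner over the same unshared bases therefore cannot be told apart in these values. The lengths behind FPKM include the shared bases, so levels of members with much overlap are understated.

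The share of antisense genes that reached the level went up with the level of the partner. It was 3.12% of the 2018 whose highest partner lay under 1 FPKM, 13.8% of the 1772 with a partner at 1 to 10 FPKM, 20.1% of the 981 at 10 to 50 FPKM and 32.1% of the 137 at 50 FPKM or more. Without a coding partner it was 12.4% of 675. Within the 525 pairs the member's mean level was 24.6% of the partner's at the median, and in 81 pairs the member lay above its partner.

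The first question was which members changed in PD. A gene "rose" or "fell" where its adjusted p in limma was under 0.05 on log2(FPKM + 1) values, over all 13579 genes tested, and was "called" where it also changed by 2-fold or more on that scale. Of the 633 members 91 (14.4%) rose, against 14.3% of all genes tested, and 79 (12.5%) fell, against 12.7%. So the shares of members that changed were near the background in both directions. Called higher were 19 (3.00%, background 2.84%) and called lower 12 (1.90%, background 0.979%). The median log2 fold change was 0.03 over the members and 0.00 over all genes tested. All 3 PD samples lay above all 3 DMSO samples for 141 members and below for 124, while 22.5% and 21.9% of all genes tested had such separate groups. Among the 353 members at the level in all 6 samples, 59 rose and 49 fell. Left out in turn, DMSO replicates 2 and 3 gave 56 and 50 members that rose and 45 and 45 that fell, and PD replicates 1 and 2 gave 55 and 42 that rose and 51 and 43 that fell. Without both DMSO replicate 1 and PD replicate 3, 113 rose and 85 fell. The called-higher count was 32 without PD replicate 3 and 35 without both.

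Members that rose and members that fell were spread unevenly over the ways a member can lie against its partner. Of 274 members inside a coding gene 43 rose and 17 fell, with a median log2 fold change of 0.15. Of 172 members head to head with their partner, where the 5′ ends overlap, 17 rose and 38 fell, with a median of -0.16. Tail to tail, where the 3′ ends overlap, 27 of 138 rose and 21 fell, and around a partner 3 of 32 rose and 3 fell. Members without a partner had 7 that rose and 10 that fell of 84. A member with several partners can stand in more than one class. Partners in pairs of the inside class rose in 50 and fell in 24 of 234 tested pairs, and head-to-head partners rose in 23 and fell in 27 of 160. The difference between the classes itself was not tested. Inside members rose in more cases than they fell under each of the 18 settings tried, and head-to-head members fell in more than they rose. Counts fell to 19 that rose inside and 20 that fell head to head without PD replicate 2, and were 23 and 24 without DMSO replicate 2, 21 and 24 without DMSO replicate 3, and 26 and 26 without PD replicate 1. With every sample scaled to the same total, which moved the median of all genes by -0.10, 30 rose and 22 fell inside, and 13 rose and 52 fell head to head.

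**Figure D1:**
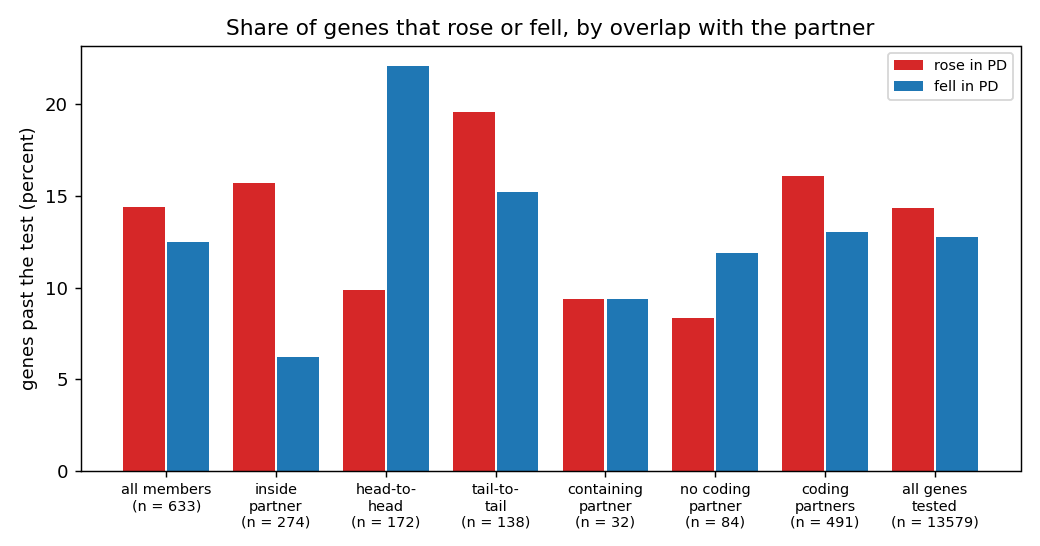
Bars give the percentage of genes past the test (adjusted p under 0.05) that rose (red) or fell (blue) in PD, for all members, for members by their overlap with a coding partner, for the partners and for all genes tested, with the number of genes under each. Members inside a partner show 15.7% up and 6.2% down, head-to-head members 9.88% up and 22.1% down. All genes tested show 14.3% up and 12.7% down.

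The largest fall was that of CADM2-AS2 (chromosome 3, 85799987 to 85828050, GRCh38), whose start is shown above. It lay at 11.1, 11.7 and 10.5 FPKM in the DMSO samples and 3.73, 3.22 and 3.13 in the PD samples. The groups were far apart and each was tight, with a log2 fold change of -1.47 ± 0.09 (SE, n = 3 per group, adjusted p = 0.000153 in limma). Its partner CADM2, a cell adhesion molecule of neurons, was barely expressed, with a mean of 0.0668 FPKM in DMSO, and was not tested. SEMA3B-AS1 (chromosome 3, 50266641 to 50267371), with no overlapping partner despite its name, had 29.5, 37.6 and 35.4 FPKM in DMSO and 20.03, 18.3 and 10.7 in PD. PD replicate 3 was the lowest, and the groups did not overlap. It fell by 1.06 ± 0.22 (SE) on the log2 scale (adjusted p = 0.0132 in limma), and the adjusted p was 0.0524 when no filter on low genes was used. AL133370.1, inside the DNA repair gene RAD51B, fell from 2.00 ± 0.632 to 0.449 ± 0.0737 FPKM (SD, n = 3), and RAD51B itself stayed under the level tested. Since AL133370.1 reached 1 FPKM in the DMSO samples only, its selection fixed that direction. AL354892.2, without a partner, fell from 3.75 ± 0.825 to 1.09 ± 0.730 FPKM on 2 to 28 reads per sample, and its adjusted p was 0.0511 without DMSO replicate 2, 0.0633 with no filter and 0.0613 without DMSO replicate 1 and PD replicate 3.

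Head-to-head members made up 4 of the 12 called lower. That is 2.33% of the 172 in the class, against 2.19% of inside members, 1.90% of all members and 0.979% of all genes tested. One of the 4 fell together with its partner. AL139393.2 (chromosome 6, 160990318 to 160992342) had 11.2, 9.73 and 11.0 FPKM in DMSO and 3.63, 3.76 and 4.41 in PD, and MAP3K4, a kinase of the stress-activated pathways, had 18.2, 18.2 and 17.4 against 8.49, 8.72 and 8.15. Both were lower in every PD sample. The log2 fold changes were -1.24 ± 0.10 and -1.0 ± 0.08 (SE), with adjusted p-values of 0.000394 and 0.000337, and their ratio did not pass (-0.24 ± 0.13, adjusted p = 0.216). For the other three the partner's change did not pass while the ratio of member to partner did. AC132938.3 fell from 5.13 ± 0.787 to 1.73 ± 0.792 FPKM (SD, n = 3) beside NARF at 3.39 ± 0.0685 and 3.23 ± 0.245, with a ratio change of -1.14 ± 0.23 (SE, adjusted p = 0.0133). AL356488.3 fell from 6.14 ± 0.167 to 2.37 ± 0.513 FPKM beside TMEM167B at 12.7 ± 2.16 and 11.9 ± 1.44, with a ratio change of -1.02 ± 0.21 (adjusted p = 0.0142). AC017100.1 fell from 4.71 ± 1.06 to 1.70 ± 0.135 FPKM beside B4GALT6, a glycolipid galactosyltransferase, at 12.9 ± 3.42 and 13.6 ± 2.17, with a ratio change of -1.15 ± 0.16 (adjusted p = 0.00328). The spans of these pairs shared 182 to 1056 bases at their starts.

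Other members called lower lie inside coding genes. AC099850.3 (chromosome 17, 59202677 to 59203829), one of the most abundant members, had 82.3, 57.5 and 67.8 FPKM in DMSO and 27.2, 34.7 and 32.4 in PD. PRR11, a gene tied to cell cycle progress, had 35, 26.3 and 26.7 against 12.8, 15 and 16.7. Both fell, by 1.11 ± 0.15 and 0.93 ± 0.14 on the log2 scale (SE, adjusted p = 0.00269 and 0.00415), without overlap between the groups. AL160254.1 fell with PCDH9, a protocadherin: the member from 5.97 ± 0.840 to 2.32 ± 1.07 FPKM and the partner from 7.62 ± 1.14 to 2.49 ± 0.137 (SD, n = 3). The member's adjusted p was 0.0123, and 0.0508 with no filter.

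**Figure D2:**
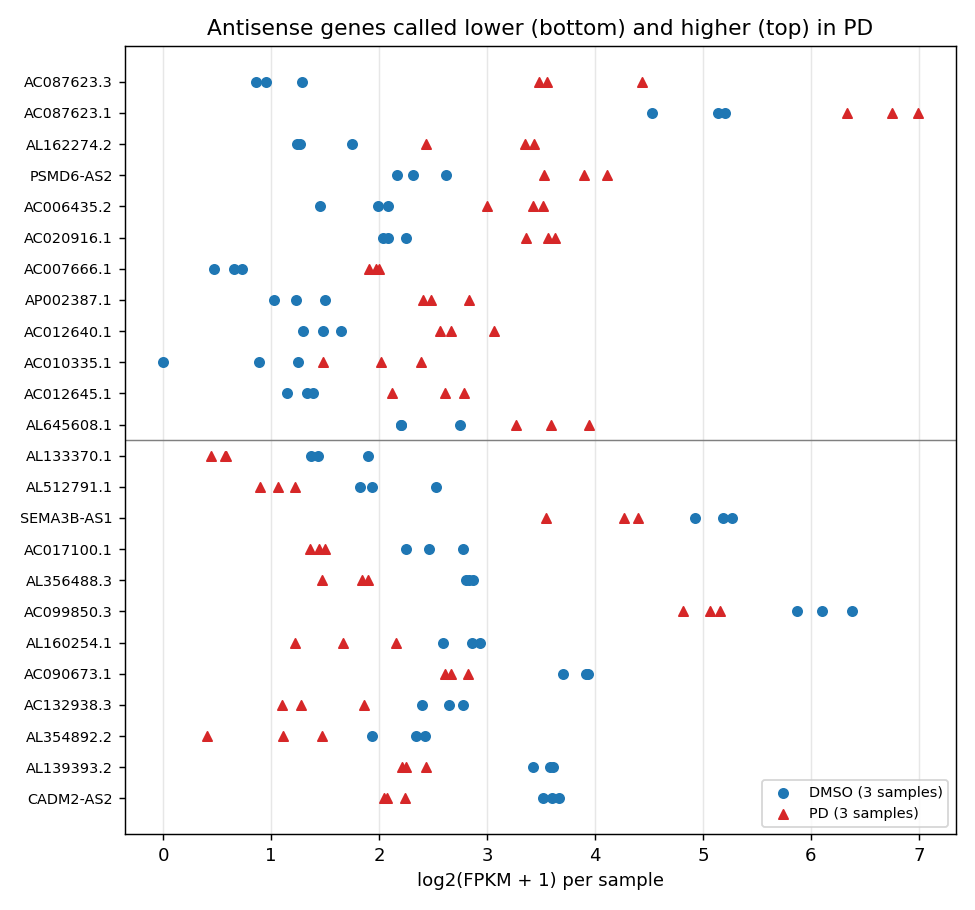
Each row is a member and each point a sample, on the log2(FPKM + 1) scale, with DMSO samples as blue circles and PD samples as red triangles. The 12 members called lower are below the line and the 12 called higher with the largest change above it, and the groups do not overlap in any row.

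Among members called higher, 2 lie in neighbouring receptor and mitochondrial genes on chromosome 8. AC087623.3 (38408048 to 38408742), inside LETM2, a mitochondrial membrane protein, had 0.937, 1.43 and 0.815 FPKM in DMSO and 10.8, 20.6 and 10.2 in PD. LETM2 had 2.09, 2.89 and 2.02 against 14.8, 19.8 and 12. PD replicate 2 was the highest in both. Log2 fold changes were 2.79 ± 0.26 for the member and 2.29 ± 0.18 for the partner (SE, adjusted p = 0.000648 and 0.000393 in limma). Only 23.6% of the member's exon bases are outside the exons of LETM2. AC087623.1 (38421889 to 38426096), inside FGFR1, the receptor of fibroblast growth factors, had 22.1, 34.3 and 36.0 FPKM in DMSO and 107, 126 and 79.6 in PD, the highest PD mean of any member. FGFR1 had 17.5, 24.7 and 22.2 against 72.7, 82.4 and 57.3. The member rose by 1.73 ± 0.23 and FGFR1 by 1.67 ± 0.17 on the log2 scale, and their ratio changed by 0.06 ± 0.13 (adjusted p = 0.779). PD replicate 2 was the highest and DMSO replicate 1 the lowest sample in both genes.

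PSMD6-AS2 (chromosome 3, 64004022 to 64012148) rose more than its tail-to-tail partner. It had 3.98, 5.16 and 3.48 FPKM in DMSO and 13.9, 16.3 and 10.6 in PD, and PSMD6, a subunit of the proteasome's regulatory particle, had 6.67, 6.54 and 6.13 against 8.43, 9.86 and 8.54. Each PD sample was above each DMSO sample in both genes. The member rose by 1.48 ± 0.18 (adjusted p = 0.00162) and PSMD6 by 0.41 ± 0.09 (adjusted p = 0.0164), with a ratio change of 1.07 ± 0.16 (adjusted p = 0.00464). The rise of PSMD6 had an adjusted p of 0.0556 and 0.0666 on leaving out DMSO replicates 2 and 3 in turn and 0.0659 without PD replicate 2. AL162274.2 rose from 1.71 ± 0.557 to 7.81 ± 2.95 FPKM (SD, n = 3) inside BNIP3, a mitophagy receptor of the BCL2 family, which rose from 1.45 ± 0.169 to 5.64 ± 1.35. AC007666.1 rose from 0.544 ± 0.141 to 2.89 ± 0.120 FPKM inside SLC25A18, a mitochondrial glutamate carrier, which rose from 0.980 ± 0.0664 to 4.0 ± 0.894. AC007666.1 was a member through its PD samples only, so its direction was fixed by the selection. AL645608.1 rose from 4.31 ± 1.23 to 11.4 ± 2.88 FPKM inside ISG15, an interferon-induced ubiquitin-like modifier, which rose from 35.6 ± 5.11 to 54.6 ± 3.82 (adjusted p = 0.0113).

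In 3 more, the change of the partner did not pass. AC006435.2 rose from 2.65 ± 0.799 to 9.06 ± 1.84 FPKM inside SGSM2, a regulator of small GTPases, at 5.93 ± 0.903 and 8.33 ± 1.6 (SD, n = 3, adjusted p = 0.0854), with a ratio change of 1.05 ± 0.12 (SE, adjusted p = 0.00215). AC020916.1, a single exon of 19049 bases, had 3.11, 3.74 and 3.23 FPKM in DMSO and 11.4, 10.8 and 9.28 in PD, while ZSWIM4 stayed between 1.09 and 2.17 in the 6 samples with overlapping groups. That member rose by 1.40 ± 0.11 (adjusted p = 0.000328) on 909 to 3331 reads per sample, so counting error was small, and the ratio changed by 1.2 ± 0.12 (adjusted p = 0.000959). AC012640.1 rose from 1.80 ± 0.346 to 5.88 ± 1.32 FPKM head to head with FAM173B, which had 4.52 ± 0.744 and 3.48 ± 0.230 (adjusted p = 0.111, and 0.0355 with equal totals), and the ratio changed by 1.58 ± 0.21 (adjusted p = 0.00264). AC012645.1 rose from 1.45 ± 0.212 to 4.78 ± 1.29 FPKM with the head-to-head YPEL3, from 0.510 ± 0.148 to 2.15 ± 0.781. YPEL3 reached 1 FPKM in the PD samples only, so the selection fixed its direction. AC010335.1 lies at ELL, which rose by 0.95 on the log2 scale (adjusted p = 0.00231 in limma). The rise of AC010335.1 rests on 0 to 39 reads per sample, and only 21.0% of its exon bases are unshared. Its adjusted p of 0.0366 became 0.0544 and 0.0708 on leaving out DMSO replicates 1 and 3 in turn, 0.0950 and 0.119 on leaving out PD replicates 1 and 2 in turn, 0.0910 with a pseudocount of 0.1 and 0.116 with no filter.

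The second question was whether member and partner changed together. Both genes passed the test in 67 of the 525 pairs, and in 56 of these (83.6%) they had the same direction, 33 with both up and 23 with both down. In 11 they were opposite, 4 with the member up and 7 with it down. Across the 525 pairs the log2 fold changes of member and partner had a Pearson r of 0.50 and a Spearman rho of 0.40. The pairs share the same 6 libraries and depth, partners recur, and each pair shares its stretch of DNA, so this is a description. Some partners, such as YPEL3 and MYCBP, reached the level in the PD or the DMSO samples only. Their direction was fixed by the selection, and they are part of these counts. Coding genes that overlap each other on opposite strands had the same direction in 69 of 102 pairs (67.6%), with an r of 0.23 over 1262 pairs. In the 187 member pairs without a shared exon base 19 of 21 had the same direction (r = 0.48), and in the 338 with shared bases 37 of 46 (r = 0.51). Of the 187, 120 were inside pairs, where unspliced RNA of the partner can be counted for the member. How much this adds to the agreement was not tested. Inside pairs agreed in 26 of 29, head-to-head pairs in 18 of 22 and tail-to-tail pairs in 12 of 15. The count of 67 was 30 and 30 on leaving out DMSO replicates 2 and 3 in turn, 30 and 23 on leaving out PD replicates 1 and 2 in turn and 87 without DMSO replicate 1 and PD replicate 3, with 27, 27, 27, 21 and 73 in the same direction.

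**Figure D3:**
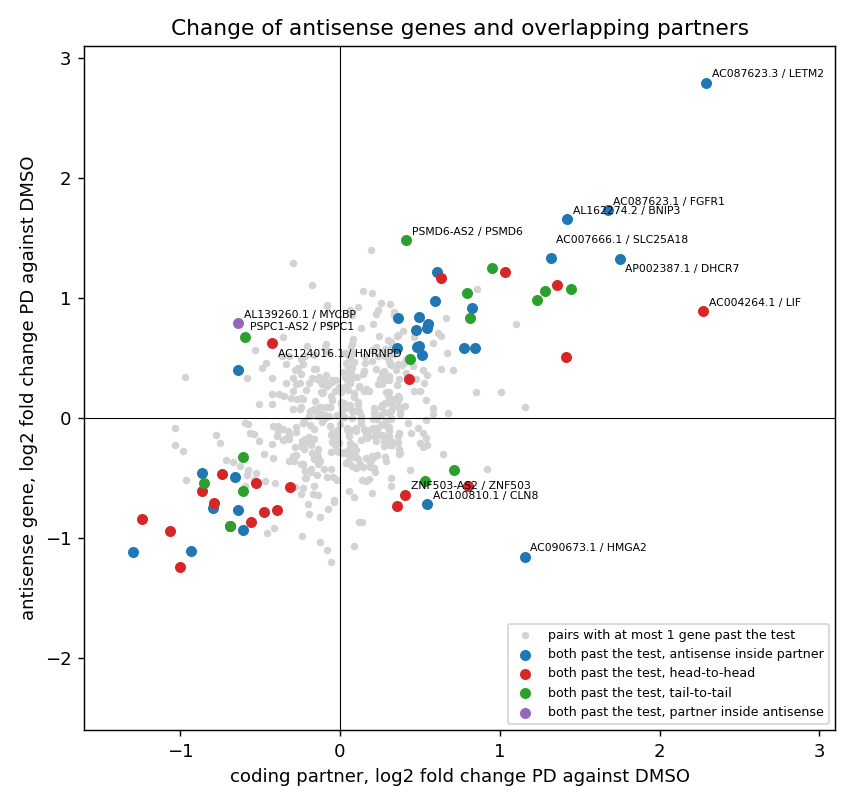
Each point is one of 525 pairs, with the partner's log2 fold change in PD on the x axis and the member's on the y axis. The 67 pairs in which both genes passed are coloured by how they overlap, and 56 of them lie at the lower left or upper right.

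Genes of sterol synthesis among the partners, looked up by name after the values were seen, were DHCR7, IDI1, IDI2, FDPS and LSS. The pathway makes cholesterol from acetyl-CoA and is switched on by SREBF2 when sterols are scarce. AP002387.1 (chromosome 11, 71448674 to 71452157) lies inside DHCR7, the enzyme of the last step to cholesterol. It had 1.34, 1.03 and 1.83 FPKM in DMSO and 4.60, 6.13 and 4.32 in PD, against 13.5, 18.7 and 18.9 and 68.8, 57.9 and 51.7 for DHCR7. The groups were separate in both genes, though the order of the PD samples was not the same. The log2 fold changes were 1.32 ± 0.16 and 1.75 ± 0.16 (SE, adjusted p = 0.00191 and 0.000601), and no exon base is shared.

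IDI2-AS1 (chromosome 10, 1022666 to 1044201) runs tail to tail with IDI1, the isopentenyl diphosphate isomerase, and had 1.94, 1.70 and 1.69 FPKM in DMSO and 5.56, 6.84 and 2.88 in PD. IDI1 had 22.9, 16.6 and 19.5 against 49.0, 53.2 and 63.2. PD replicate 3 was the lowest PD sample for the member and the highest for IDI1. The member rose by 1.07 ± 0.24 (adjusted p = 0.0172) and IDI1 by 1.44 ± 0.14 (adjusted p = 0.000846). The adjusted p of IDI2-AS1 was 0.0500 and 0.0530 on leaving out DMSO replicates 2 and 3 in turn, 0.0579 and 0.0520 on leaving out PD replicates 1 and 2 in turn and 0.0651 with no filter. Its head-to-head partner IDI2, the second isomerase, had 0.732 ± 0.427 and 2.20 ± 0.974 FPKM (adjusted p = 0.0569). RUSC1-AS1, tail to tail with FDPS, the farnesyl diphosphate synthase, had 1.70, 1.65 and 2.06 FPKM in DMSO and 5.69, 5.83 and 3.32 in PD, and FDPS 9.61, 10.4 and 12.1 against 31.1, 28.5 and 23.2. Both rose, by 1.06 ± 0.19 and 1.28 ± 0.13 (adjusted p = 0.00715 and 0.000939). At its other end RUSC1-AS1 lies head to head with RUSC1, which had 8.02 ± 0.348 and 8.99 ± 0.469 FPKM (adjusted p = 0.232), and that ratio changed by 0.91 ± 0.19 (adjusted p = 0.0158). AP001469.1 lies inside LSS, the lanosterol synthase, and had 1.54 ± 0.309 and 1.61 ± 0.262 FPKM with overlapping groups (SD, n = 3, adjusted p = 0.853), while LSS rose from 9.79 ± 0.912 to 16.4 ± 3.03 (adjusted p = 0.0130, and 0.0503 without PD replicate 2).

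The change of SREBF2-AS1 did not pass, while that of SREBF2, the transcription factor whose window holds the SRE-1 match, did. The member had 2.31, 2.39 and 2.18 FPKM in DMSO and 2.66, 2.94 and 2.88 in PD, a log2 fold change of 0.22 ± 0.09 (SE, adjusted p = 0.132, and 0.0411 with array weights). SREBF2 rose from 51.1, 56.8 and 58.0 to 122, 111 and 104 FPKM, by 1.01 ± 0.10 (adjusted p = 0.000771). PD samples lay above DMSO samples in both, but the ratio changed by -0.79 ± 0.13 (adjusted p = 0.00655). RUSC1-AS1, AP001469.1 and SREBF2-AS1 were chosen after their values were seen, as were NR2F1-AS1, PRKG1-AS1, AC004264.1, ABALON, FOXN3-AS1, AC012123.1, WAC-AS1, NAPA-AS1, ZNF503-AS2, AC009005.1 and AL138789.1 below.

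Further pairs in which both genes passed hold secreted factors, transcription factors and a survival gene. AC004264.1 had 2.79, 3.03 and 2.43 FPKM in DMSO and 7.63, 6.64 and 4.03 in PD, and its head-to-head partner LIF, a cytokine of the interleukin 6 family, 21.4, 26.5 and 23.4 against 119, 130 and 108. The member rose by 0.89 ± 0.20 (adjusted p = 0.0164) and LIF by 2.27 ± 0.11 (adjusted p = 5.72e-05), and the ratio changed by -1.39 ± 0.21 (adjusted p = 0.00417). For the member the adjusted p was 0.0561 without DMSO replicate 3, 0.0642 without PD replicate 2 and 0.0604 with no filter. PRKG1-AS1 had 5.65, 4.51 and 4.60 FPKM in DMSO and 2.54, 2.58 and 3.55 in PD, and DKK1, a secreted inhibitor of Wnt signalling, 602, 534 and 566 against 287, 288 and 362. PD replicate 3 was the highest PD sample of both. They fell by 0.61 ± 0.14 and 0.87 ± 0.12 (adjusted p = 0.0162 and 0.00304), the first with an adjusted p of 0.0540 and 0.0638 on leaving out PD replicates 1 and 2 in turn and 0.0540 with no filter. PRKG1, which the member also overlaps and is named for, stayed under 1 FPKM in all samples.

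NR2F1-AS1 (chromosome 5, 93409359 to 93585648) fell with NR2F1, an orphan nuclear receptor of development. The member had 11.1, 9.55 and 9.84 FPKM in DMSO and 4.32, 4.48 and 5.73 in PD, and NR2F1 had 114, 139 and 138 against 67.6, 59.4 and 57.8. Levels in PD were lower in every sample for both. The log2 fold changes were -0.94 ± 0.12 and -1.07 ± 0.11 (SE, adjusted p = 0.00197 and 0.00110). FOXN3-AS1 fell from 5.01 ± 0.355 to 2.20 ± 0.700 FPKM (SD, n = 3) inside FOXN3, a forkhead repressor, which fell from 27.7 ± 1.79 to 17.8 ± 0.361. AC012123.1 fell from 3.34 ± 0.523 to 1.43 ± 0.373 FPKM head to head with KLHL14, which fell from 47.9 ± 5.68 to 19.7 ± 1.46. WAC-AS1 fell from 13.2 ± 1.95 to 7.29 ± 1.15 FPKM, and its head-to-head partner WAC from 34.6 ± 5.72 to 24.6 ± 3.64 with an adjusted p of 0.0492. That of WAC was 0.0911, 0.0712 and 0.0801 on leaving out DMSO replicates 1, 2 and 3 in turn, 0.141 and 0.150 on leaving out PD replicates 1 and 2 in turn, 0.120 with no filter and 0.0510 with a pseudocount of 0.1.

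ABALON lies inside BCL2L1, which encodes the survival protein BCL-XL. It had 2.84, 2.25 and 2.02 FPKM in DMSO and 1.44, 0.650 and 0.982 in PD, and BCL2L1 27.1, 26.9 and 29.8 against 16.1, 15 and 15.8. The groups were separate in both genes. ABALON fell by 0.75 ± 0.17 (adjusted p = 0.0191) and BCL2L1 by 0.80 ± 0.08 (adjusted p = 0.000985). Of the exon bases of ABALON 74.8% lie in exons of BCL2L1, and the reads, 19 to 83 per sample, come from the rest. Its adjusted p was 0.0520 without DMSO replicate 2, 0.0597 without PD replicate 2, 0.0715 without DMSO replicate 1 and PD replicate 3 and 0.0679 with no filter. NAPA-AS1 rose from 0.631 ± 0.277 to 2.38 ± 0.654 FPKM, and NAPA, an adaptor of membrane fusion tail to tail with it, from 12.4 ± 0.976 to 22.2 ± 1.55. The member reached 1 FPKM in the PD samples only, which fixed its direction. AC091887.1 (adjusted p = 0.0306) rose from 3.26 ± 1.56 to 8.10 ± 2.89 FPKM with the head-to-head PLAC8L1, from 5.68 ± 1.14 to 16.0 ± 1.81, while its tail-to-tail partner LARS, a leucyl-tRNA synthetase, had 60.6 ± 6.33 and 53.5 ± 4.46 (adjusted p = 0.268, 0.0356 with equal totals and 0.0353 with quantile scaling). The adjusted p of AC091887.1 became 0.0862 and 0.0909 on leaving out DMSO replicates 2 and 3 in turn, 0.0713 and 0.0932 on leaving out PD replicates 1 and 2 in turn and 0.1001 with no filter.

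**Figure D4:**
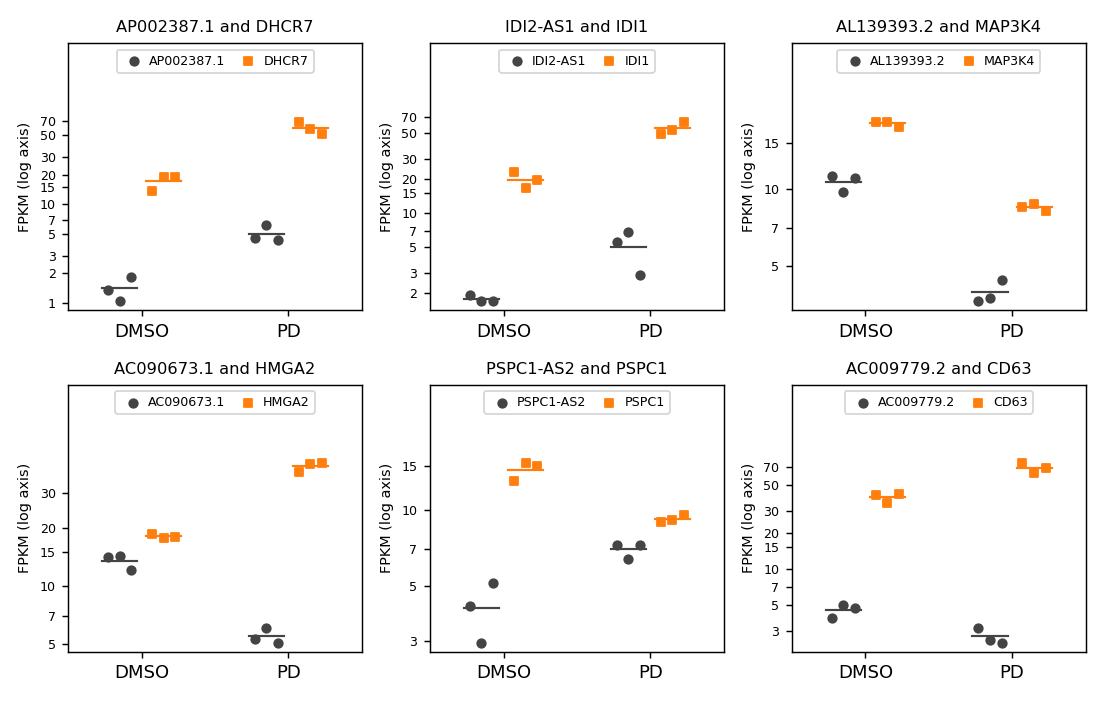
FPKM of members (dark circles) and partners (orange squares) in each of the 3 DMSO and 3 PD samples on a log axis, with lines at the group means. The upper row shows 3 pairs with the same direction and the lower row 3 with opposite directions.

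The widest split was that of AC090673.1 and HMGA2. AC090673.1 (chromosome 12, 65851340 to 65882167), inside HMGA2, a chromatin protein of embryonic and tumour cells, had 14.1, 14.3 and 12 FPKM in DMSO and 5.34, 6.06 and 5.10 in PD. HMGA2 had 18.6, 17.7 and 18.0 against 38.7, 42.8 and 43.1. The samples did not overlap in either gene, and the directions were opposite. The member fell by 1.15 ± 0.10 (SE, adjusted p = 0.000584) on 461 to 1472 reads per sample and HMGA2 rose by 1.16 ± 0.08 (adjusted p = 0.000242). Their ratio changed by -2.31 ± 0.14 (adjusted p = 0.000168), the smallest adjusted p among the 525 pairs. A second member inside the same gene, AC090673.2, had 17.2, 19.4 and 20.3 FPKM in DMSO and 18.2, 22.4 and 20.4 in PD with overlapping groups (0.09 ± 0.11, adjusted p = 0.552), so its ratio to HMGA2 changed by -1.06 ± 0.13 (adjusted p = 0.00228).

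Other members fell while the partner rose. AC009779.2 had 3.88, 4.92 and 4.71 FPKM in DMSO and 3.20, 2.53 and 2.40 in PD, and its head-to-head partner CD63, a tetraspanin of late endosomes and lysosomes, 40.8, 35.3 and 42.2 against 76.5, 62.7 and 69.7. The groups were separate in both. The changes were -0.57 ± 0.12 (adjusted p = 0.0156) and 0.80 ± 0.11 (adjusted p = 0.00282), with a ratio change of -1.37 ± 0.18 (adjusted p = 0.00295). For the member the adjusted p was 0.0603 and 0.0586 on leaving out DMSO replicates 2 and 3 in turn, 0.0609 without PD replicate 2 and 0.0505 with no filter. AC009005.1 fell from 4.81 ± 1.17 to 2.48 ± 0.521 FPKM (SD, n = 3) head to head with BSG, the transmembrane glycoprotein basigin, which rose from 103 ± 3.93 to 132 ± 8.19, with a ratio change of -1.09 ± 0.17 (SE, adjusted p = 0.00507). The 0.0189 adjusted p of AC009005.1 became 0.0501 without DMSO replicate 3 and 0.0653 with no filter. On leaving out PD replicates 1 and 2 in turn its adjusted p was 0.0620 and 0.0708. That of BSG, 0.0231, was 0.0928 and 0.0581 on leaving out DMSO replicates 2 and 3 in turn, 0.0809 and 0.0505 on leaving out PD replicates 1 and 2 in turn, 0.0785 with equal totals, 0.0781 with quantile scaling and 0.0548 with no filter.

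AL606760.1 fell from 1.68 ± 0.199 to 0.983 ± 0.0959 FPKM (SD, n = 3) tail to tail with LRP8, a lipoprotein receptor, which rose from 2.05 ± 0.136 to 4.02 ± 0.564. The adjusted p of AL606760.1, 0.0341, was 0.123 and 0.101 on leaving out DMSO replicates 2 and 3 in turn, 0.1004 and 0.0939 on leaving out PD replicates 1 and 2 in turn, 0.0789 with voom on recovered reads and 0.0925 with no filter. AC100810.1 fell from 2.23 ± 0.372 to 0.996 ± 0.466 FPKM inside CLN8, a cargo receptor for lysosomal enzymes, which rose from 2.25 ± 0.133 to 3.75 ± 0.362. Its adjusted p of 0.0330 was between 0.0521 and 0.102 without DMSO replicate 1, DMSO replicate 2, DMSO replicate 3, PD replicate 1 or PD replicate 2 in turn, and 0.104 with no filter. The ratios changed by -1.15 ± 0.14 (SE, adjusted p = 0.00249) and -1.26 ± 0.22 (adjusted p = 0.00804). ZNF503-AS2 fell from 6.01 ± 0.284 to 3.53 ± 0.670 FPKM head to head with ZNF503, a zinc finger repressor, at 49.0 ± 5.75 and 65.2 ± 5.48. The rise of ZNF503 (adjusted p = 0.0369) lost its call without any one of the 6 samples, with adjusted p-values between 0.0542 and 0.115, and also with equal totals (0.137), quantile scaling (0.148), upper quartile scaling (0.0728) and no filter (0.0859), while the ratio changed by -1.05 ± 0.20 (adjusted p = 0.0114). UGDH-AS1 fell from 2.94 ± 0.111 to 1.77 ± 0.580 FPKM tail to tail with SMIM14, which rose from 2.88 ± 0.461 to 4.63 ± 0.861, and the ratio changed by -1.06 ± 0.12 (adjusted p = 0.00166). The member's adjusted p of 0.0417 lay between 0.0858 and 0.132 without any one sample but PD replicate 3 and was 0.115 with no filter, and that of SMIM14, 0.0309, was 0.0974 and 0.0943 on leaving out DMSO replicates 2 and 3 in turn, 0.0660 and 0.0603 on leaving out PD replicates 2 and 3 in turn and 0.0880 with no filter.

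The reverse, a rise of the member with a fall of the partner, was seen in 4 pairs. PSPC1-AS2 had 4.16, 2.96 and 5.12 FPKM in DMSO and 7.27, 6.41 and 7.27 in PD, and PSPC1, a protein of nuclear paraspeckles tail to tail with it, 13.1, 15.4 and 15 against 8.98, 9.18 and 9.58. The changes were 0.67 ± 0.16 (SE, adjusted p = 0.0209) and -0.60 ± 0.09 (adjusted p = 0.00416), and the ratio changed by 1.27 ± 0.19 (adjusted p = 0.00399). The member's adjusted p was 0.0645, 0.0509 and 0.0503 on leaving out PD replicates 1, 2 and 3 in turn, 0.0668 without DMSO replicate 1 and PD replicate 3, 0.0590 with voom on recovered reads and 0.0674 with no filter. AC124016.1 rose from 3.07 ± 0.455 to 5.31 ± 0.972 FPKM (SD, n = 3) head to head with HNRNPD, an RNA-binding protein of AU-rich elements, which fell from 29.8 ± 0.805 to 22 ± 0.664. The member's adjusted p of 0.0173 was 0.0564 without DMSO replicate 3, 0.0593 without PD replicate 2 and 0.0585 when DMSO replicate 1 and PD replicate 3 were both left out. With no filter it was 0.0570. AL139260.1 rose from 11.3 ± 2.13 to 20.03 ± 2.17 FPKM and spans MYCBP, a partner protein of MYC, which fell from 1.45 ± 0.199 to 0.583 ± 0.209. MYCBP reached 1 FPKM in the DMSO samples only, so the selection fixed its direction. The tail-to-tail partner of AL139260.1, the rhomboid protease RHBDL2, had 1.41 ± 0.273 and 2.60 ± 0.703 FPKM with every PD sample higher (adjusted p = 0.0503, and between 0.00533 and 0.0398 in 5 of the alternatives). The adjusted p of MYCBP, 0.0198, was 0.0522 and 0.0579 on leaving out DMSO replicates 1 and 2 in turn, 0.0645 without PD replicate 1 and 0.0732 without DMSO replicate 1 and PD replicate 3. With no filter it was 0.0588. AL138789.1 had 7.27 ± 1.13 and 9.89 ± 0.827 FPKM (adjusted p = 0.0476) inside DEPDC1, with 22.8 ± 6.35 and 14.0 ± 1.42 (adjusted p = 0.0384), and neither call held without DMSO replicate 2 (0.137 and 0.0539), PD replicate 1 (0.137 and 0.114), PD replicate 2 (0.0876 and 0.0900) or PD replicate 3 (0.0809 and 0.0605) or with no filter (0.108 and 0.108), nor that of the member without DMSO replicate 3 (0.101), with equal totals (0.0925) or with voom on recovered reads (0.0696).

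The ratio of member to partner was tested in all 2325 overlapping opposite-strand pairs of tested genes, of which 22% passed. Of the 525 member pairs 91 (17.3%) passed, 44 with the member relatively up and 47 with it relatively down. The share was below that of all such pairs, and 36 of 160 head-to-head pairs passed, 26 with the member down, against 33 of 234 inside pairs, 13 with the member down. The 13 named ratios in opposite pairs and at the smallest adjusted p kept their direction and their call in all alternatives run. They were picked on these same 6 samples, so this describes their dependence on the processing and is no independent support. In the ratio of AL139260.1 to MYCBP, the selection fixed the direction of MYCBP. Another of the 13 is that of AP001107.9 to SLC29A2, an equilibrative nucleoside transporter, which changed by 0.85 ± 0.11 (adjusted p = 0.00249). AP001107.9 reached 1 FPKM in the PD samples only, so its selection fixed part of that difference: the member had 0.332, 0.919 and 0.866 FPKM in DMSO and 2.07, 2.19 and 1.49 in PD and the partner 5.82 ± 1.25 and 5.48 ± 0.633.

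Of the 8 members with the highest mean level, AC087623.1 was called higher and AC099850.3 and SEMA3B-AS1 lower, as given above. The other five changed by less than 2-fold. AL445524.1 (chromosome 1, 231522388 to 231528556) had 59.8, 67.2 and 75.7 FPKM in DMSO and 70.4, 63.8 and 82.9 in PD, with overlapping groups (0.10 ± 0.13, SE, adjusted p = 0.622), and its sign turned under scaling to equal totals or by quantiles. FGD5-AS1 had 46.2, 35.7 and 38.8 FPKM in DMSO and 27.3, 29.5 and 36.8 in PD (-0.36 ± 0.14, adjusted p = 0.101), a fall that passed without PD replicate 3 (0.0388) and under scaling to equal totals (0.0206), by quantiles (0.0302) or by the upper quartile (0.0432). Of its partners FGD5 fell by 0.29 (adjusted p = 0.0280 in limma), a call lost in 5 of 17 alternatives, the replicate block among them. NR2C2 did not pass (0.29, adjusted p = 0.0619), though it did in 4 alternatives. TGFB2-AS1 had 23.3, 28.3 and 28.8 FPKM against 56.5, 34.4 and 32.8, where PD replicate 1 stood above the rest and the groups did not overlap (0.57 ± 0.21, adjusted p = 0.0814, and 0.0476 with voom on recovered reads). AC124798.1 rose from 26.1 ± 1.91 to 35.8 ± 2.23 FPKM (SD, n = 3) with an adjusted p of 0.0134, which was 0.0513 and 0.0566 on leaving out DMSO replicates 2 and 3 in turn and 0.0592 without PD replicate 2. AC005288.1 had 29.8 ± 4.60 and 27.2 ± 2.09 FPKM (adjusted p = 0.506), and MED1, a Mediator subunit tail to tail with it, 20.2 ± 0.728 and 19.4 ± 1.45 (adjusted p = 0.699). Its other partner, FBXL20, rose by 0.37 on the log2 scale (adjusted p = 0.0377 in limma). That call was lost in 9 of 17 alternatives, the replicate block among them.

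Of the 6 HOX antisense members 0 passed in limma, 0 with voom and 0 at an unadjusted p under 0.05. These lie in the clusters of homeobox genes that give cells their position along the body axis. HOXB-AS4 had 10.8, 14.2 and 10.6 FPKM in DMSO and 12.8, 14.4 and 10.6 in PD, HOXB-AS1 9.57 ± 1.65 and 9.45 ± 0.666 (SD, n = 3), HOXB-AS3 4.35 ± 1.10 and 4.73 ± 1.87, HOXC-AS1 2.41 ± 0.391 and 2.29 ± 0.909, and HOXA-AS2 1.05 ± 0.0865 and 1.19 ± 0.250. HOXB-AS2 had 1.62, 1.46 and 0.939 FPKM against 3.62, 2.93 and 0.711, so PD replicate 3 lay apart from the other PD samples (adjusted p = 0.398, 0.0153 without PD replicate 3 and 0.0350 with array weights). Of their coding partners HOXB5 rose from 5.56 ± 0.631 to 7.5 ± 0.522 FPKM (adjusted p = 0.0337), and HOXB7, HOXB2, HOXB3, HOXB4, HOXB6, HOXC6, HOXC9, HOXA3 and HOXA4 did not pass.

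Changes among the listed genes that end, trim or sense such RNA were under 2-fold where they passed. Their counts stand against 14.3% of all genes tested that rose and 12.7% that fell. In the nuclear exosome and its adaptors 0 of 18 rose and 2 fell, EXOSC8 from 27.1 ± 2.70 to 19.7 ± 2.40 FPKM and EXOSC2 from 9.10 ± 0.626 to 7.22 ± 0.414 (SD, n = 3). Of 16 cleavage and termination factors PCF11 rose, from 24.8 ± 3.66 to 33.3 ± 2.01 FPKM, and CPSF4, CSTF1 and SCAF8 fell. Of 14 tested subunits of Integrator, which ends short and unstable transcripts, 0 rose and INTS1, INTS5, INTS7 and INTS12 fell, INTS1 from 17.1 ± 1.95 to 11.4 ± 0.731 FPKM (adjusted p = 0.0103). Of 15 genes that handle double-stranded RNA 0 rose, and MAVS and PRKRA fell, from 7.13 ± 0.818 to 4.28 ± 0.378 and from 18.1 ± 1.49 to 11.6 ± 1.65 FPKM. At an unadjusted p under 0.05, 0 exosome genes, 0 Integrator genes and 1 gene for double-stranded RNA were higher in PD, and with limma's voom 0 genes of these 3 lists rose and 5 of the last fell. Median log2 fold changes of the 4 lists were 0.00, -0.07, -0.09 and -0.19, against 0.00 over all genes tested, in the order given.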

How the data were processed

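The deposited table holds FPKM values per gene made by the authors, 1 column for each of 3 DMSO and 3 PD samples. Per the labels' protocols, a stranded mRNA kit was used and libraries were read in pairs. The sources used here give no aligner, counter or annotation. Builds named in the submitters' processing notes are of mouse (GRCm38, mm10), yet the 58735 identifiers, with their starts, ends, strands and exon lengths, matched GENCODE release 29 (human, GRCh38), from which 27 names turned into dates were restored. Columns were matched to samples by group prefix, which is certain, and by the number ending each title, which is not, so replicate numbers in the text name columns and may differ from the labels'. The product of FPKM and length was a whole multiple of 1 step per sample for 100% of values above 0 within 0.01, which gives whole reads, 14915538 to 16341687 per sample over genes. The divisor behind FPKM was 1.03, 1.10 and 1.08 times these totals in DMSO replicates 1, 2 and 3. In PD replicates 1, 2 and 3 it was 1.00, 0.997 and 0.947 times. FPKM therefore places PD higher against DMSO than equal totals do. For the members the low totals limit precision.

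Values were taken as log2(FPKM + 1), and the pseudocount of 1 understates changes of low genes. The 13579 genes with at least 1 FPKM in at least 3 samples were fitted in R 4.3.3 by limma 3.58.1 with a trend of variance on mean and no covariate, tested on both sides, and p-values were adjusted over all of them (Benjamini-Hochberg). The difference of log2(FPKM + 1) between 2 overlapping opposite-strand genes was fitted likewise over 2325 pairs. The call threshold, an adjusted p under 0.05 with a 2-fold change, is that of the labels. Pair classes follow gene spans and strands, and shared exon bases GENCODE exons. Promoter windows came from RefSeq (GRCh38.p14).

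Members and lists were chosen with earlier results of these data known. Named members were the 12 called with the largest change per direction, the 8 with the highest level, up to 8 pairs per direction class in which both passed, the 8 ratios with the smallest adjusted p, HOX antisense genes and those at the filter's edge, besides members that the text marks as chosen with their values seen. List genes named are those past the test. The scripts were tested on simulated data. Alternatives varied the pseudocount, filter, scaling, variance model (array weights, voom on recovered reads), replicate block, samples, overlap and size criterion. Figures were drawn with matplotlib 3.10.9. No sample was left out.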

Additional observations from a re-analysis of the deposited data

How the results depend on the processing

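Of 98 named results past the test, 67 kept their call under every alternative run, and 0 changed sign. Counts of calls moved most. Members that rose and fell numbered 91 and 79, and 38 and 37 with no filter, 164 and 120 with array weights, 52 and 46 with the replicate block, and 113 and 85 without DMSO replicate 1 and PD replicate 3. With a mean of at least 2 FPKM 50 fell, among fewer members. Leaving out one sample gave 42 to 102 that rose and 43 to 75 that fell. Members called higher and lower numbered 19 and 12, and 46 and 36 with a pseudocount of 0.1, 35 and 24 with 0.5, 53 and 40 with limma's voom on the reads, and 91 and 79 by adjusted p alone. With array weights 34 were called higher, without DMSO replicate 1 and PD replicate 3 35, and 13 to 32 with one sample left out, while 10 to 15 were then called lower. Partners that rose and fell numbered 79 and 64, and 52 and 108 with equal totals, 149 and 104 with array weights, and 43 and 33 with the replicate block. Without DMSO replicate 1 and PD replicate 3 119 partners rose, and with one sample left out 48 to 91 rose and 40 to 63 fell. Ratios passed with the member relatively up in 44 pairs and down in 47. At a mean of at least 2 FPKM 24 were up, and with one sample left out 17 to 48 were up and 27 to 52 down. The cause of these moves was not tested.

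Whether replicate numbers pair the samples is not known, since the labels do not say so and the match of columns to numbers is uncertain. Deviations of same-numbered samples from their group means correlated at -0.388, 0.168 and -0.163, which cannot decide it. Both genes passed in 32 pairs with the replicate block, 30 of them in the same direction. The values given gene by gene above leave this block out. With it limma's adjusted p was 0.0543 for HNRNPD and 0.0527 for ISG15, which kept their call in all other alternatives. It was 0.0577 to 0.0922 for PRKG1-AS1, AC009779.2, AC124798.1, AL138789.1, AC100810.1, AL606760.1 and UGDH-AS1. For LSS, MYCBP, PSMD6, BSG, SMIM14, DEPDC1, WAC and ZNF503 it was 0.0512 to 0.117. For FBXL20 and FGD5 it was 0.0950 and 0.124.

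Signs turned only for genes that had not passed. With equal totals AL445524.1 had -0.026, AP001469.1 -0.035, AC090673.2 -0.024, HOXB-AS4 -0.035, HOXB-AS3 -0.040 and B4GALT6 -0.027, and AL445524.1 had -0.029 with quantile scaling. Array weights gave AL445524.1 -0.062 and HOXB-AS1 0.116, and voom gave HOXB-AS1 0.00052. Without DMSO replicate 1 and PD replicate 3, AL445524.1 had -0.089, HOXB-AS1 0.165 and HOXC-AS1 0.035. With one sample left out the range was -0.0052 to 0.182 for AL445524.1, -0.029 to 0.139 for AP001469.1, -0.017 to 0.205 for HOXB-AS4, -0.109 to 0.112 for HOXB-AS1, -0.152 to 0.348 for HOXB-AS3, -0.290 to 0.090 for HOXC-AS1, -0.028 to 0.282 for B4GALT6, -0.094 to 0.0064 for MED1, -0.224 to 0.021 for SLC29A2 and -0.183 to 0.040 for TMEM167B. The median of 33 reads per member and sample limits precision.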
